A study of Mus musculus with 48 samples.

Results

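The mouse Hox genes are homeobox transcription factors that sit in 4 clusters on 4 chromosomes, and they were described here across body sites of the skin. Every gene of the deposited tables named Hoxa, Hoxb, Hoxc or Hoxd followed only by a number was taken, which gave 39 of the 46983 genes listed, with 11 Hoxa, 10 Hoxb, 9 Hoxc and 9 Hoxd members. The rule used gene names alone and no measured value. The clusters lie on chromosome 6 at 52155590 to 52260880 (Hoxa), chromosome 11 at 96194316 to 96368256 (Hoxb), chromosome 15 at 102921103 to 103036852 (Hoxc) and chromosome 2 at 74668310 to 74765142 (Hoxd), in build GRCm38.

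Hox genes give cells an address along the head-to-tail axis of the embryo. The members at one end of each cluster, with low paralog numbers, are used in the hindbrain and the pharyngeal arches, and those with higher numbers are used further towards the tail. Fibroblasts of adult skin are known to keep a Hox pattern that depends on their body site, and Hoxc13 is known in addition for its part in forming the hair shaft.

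The study asked whether skin regions differ in their hair growth cycle, and RNA of whole skin from C57BL/6 mice was sequenced with SMART-seq2, a full-length cDNA protocol. Chin, ventral and dorsal skin were each collected at competent telogen (rest, able to respond to growth cues), early, mid and late anagen (growth), catagen (regression) and refractory telogen (rest, unable to respond). These 18 groups of 2 or 3 libraries made up 43 libraries, with 14 from chin, 15 from ventral and 14 from dorsal skin. A second table held 3 libraries of the cartilage/muscle complex of the ear, 2 of ear skin in telogen and 2 of dorsal skin in competent telogen, the last being the same libraries as in the first table. The labels name no treatment, genetic change or age for any of these groups. The labels do not say whether libraries of 1 group came from separate animals, so p-values measure the spread between these libraries.

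Levels are given in FPKM, fragments mapped to a gene scaled by its transcript length and by the depth of the library, so that levels of different genes can be compared. The files hold no counts, and an estimate from the steps between low FPKM values put the libraries at 6466353 to 29447596 fragments, with a median of 12866722. Differences are given on the scale of log2(FPKM + 1) with their standard error (SE) and the adjusted p of limma, a moderated linear model fitted over all genes that passed a filter of 0.5 FPKM in at least 2 libraries. A gene is called where the adjusted p is under 0.05. In whole skin, fewer cells of a type and less RNA per cell cannot be told apart.

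Some libraries lay close to a group with another label, and this touches the comparisons that follow. The 2 libraries labelled chin late anagen differed from the 2 labelled dorsal competent telogen by a median absolute log2 difference of 0.107 over all genes, while replicates of 1 group differed by 0.0868 to 0.289 and chin late anagen differed from the other chin groups by 0.226 to 0.381. Over the Hox members alone the root mean square log2 difference between these groups was 0.134, the smallest of 153 pairs of groups, followed by 0.213. The summed FPKM of 7 hair shaft keratins was 8098 to 8195 in dorsal competent telogen and 7990 to 8587 in chin late anagen, against 2081 to 2245 and 1776 to 2209 in competent telogen of chin and ventral skin. In refractory telogen it was 1890 to 3292 in chin, 6833 to 7594 in ventral and 6149 to 6408 in dorsal skin. Whether a label is at fault cannot be told from the files, so values are given with and without the chin late anagen libraries, a choice made after seeing the data. The labels of ventral catagen replicate 1 name 2 body sites, ventral skin and ear, and it was kept in the ventral group.

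**Figure D1:**
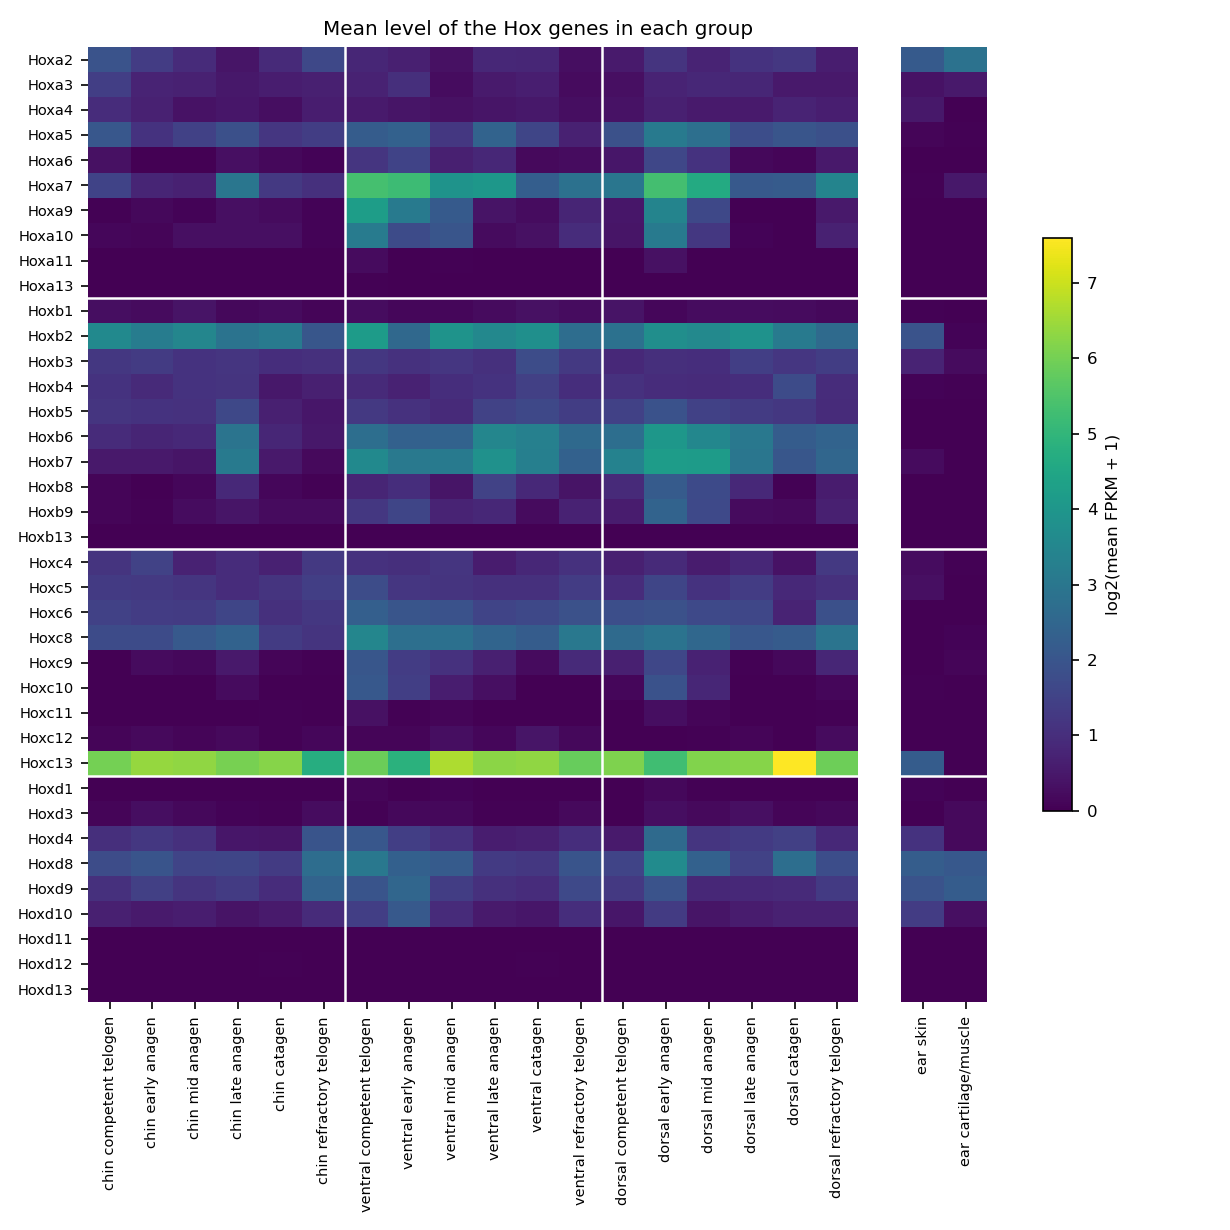
Mean level of Hox members (vertical axis, by cluster) in the 18 groups of skin, ear skin and ear cartilage/muscle (horizontal axis), as colour on the log2(FPKM + 1) scale. Hoxa7, Hoxb6 and Hoxb7 are dark (low) in every chin group except chin late anagen, and Hoxc13 is bright (high) in all skin groups except ear skin.

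Most Hox members were transcribed at a low level in skin. Hoxa11, Hoxa13, Hoxb1, Hoxb13, Hoxc12, Hoxd1, Hoxd3, Hoxd11, Hoxd12 and Hoxd13 stayed under 0.5 FPKM in every library, with a highest value of 0.44. Hoxc11 reached 0.52 FPKM in its highest library and also failed the filter. This left 28 of the 39 members among the 21257 genes tested in the 43 skin libraries, and a member can pass through the group in which it is high.

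Hoxc13 was the highest member in all 3 skin domains, with 20.8 to 93.9 FPKM and a median of 66.4 in the 12 chin libraries other than chin late anagen, 27.8 to 108 FPKM (median 62.2) in ventral skin and 37.0 to 208 FPKM (median 70.8) in dorsal skin. The domains overlapped, and its dorsal level was higher than that of chin skin by 0.27 ± 0.06 (SE, adjusted p = 0.00178), while ventral skin differed from chin by 0.03 (adjusted p = 0.784). Hoxb2, a paralog group 2 gene used in hindbrain segments, ranged from 2.52 to 14.7 FPKM in chin, 3.27 to 21.3 FPKM in ventral and 5.09 to 13.9 FPKM in dorsal skin. Hoxb2 therefore also overlapped between the domains. Without Hoxc13, the members summed to 21.9 to 44.2 FPKM in chin skin other than late anagen, 49.9 to 165 FPKM in ventral skin and 43.5 to 171 FPKM in dorsal skin.

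Chin skin and trunk skin differed most in 3 members of the middle of the clusters. Hoxa7, Hoxb6 and Hoxb7 act in patterning of the trunk skeleton, and all had low levels in chin skin. Hoxb7 was at 0 to 0.77 FPKM (median 0.36) in the 12 chin libraries, at 3.23 to 17.6 FPKM (median 7.83) in ventral skin and at 3.06 to 18.2 FPKM (median 8.70) in dorsal skin. Hoxb6 was at 0 to 1.42 FPKM (median 0.7), at 2.66 to 11.7 FPKM (median 4.95) and at 3.15 to 15.7 FPKM (median 7.03) in the same order. Hoxa7 was at 0.32 to 2.33 FPKM (median 1.08), at 3.1 to 42.3 FPKM (median 17.6) and at 2.88 to 39.3 FPKM (median 8.68). For each of the 3 genes the lowest trunk library lay above the highest of these chin libraries, and ventral and dorsal skin overlapped.

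The libraries labelled chin late anagen stood with the trunk in these genes. They held 7.16 and 6.6 FPKM of Hoxa7, 7.13 and 6.16 FPKM of Hoxb6, and 7.25 and 8.41 FPKM of Hoxb7, where dorsal competent telogen held 7.61 and 6.17, 5.57 and 5.85, and 9.09 and 9.41 FPKM. With them counted as chin skin, 0 of 21257 genes had every dorsal library above every chin library (0% of genes), and likewise for ventral skin. Without them, 3 genes (0.0141% of genes) had every dorsal library above every chin library, and 3 had every ventral library above them. In both comparisons the 3 were Hoxa7, Hoxb6 and Hoxb7. The reverse held for 1 gene (0.0047% of genes), Rhox4a2, which is no Hox cluster gene and was named after its values were seen.

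**Figure D2:**
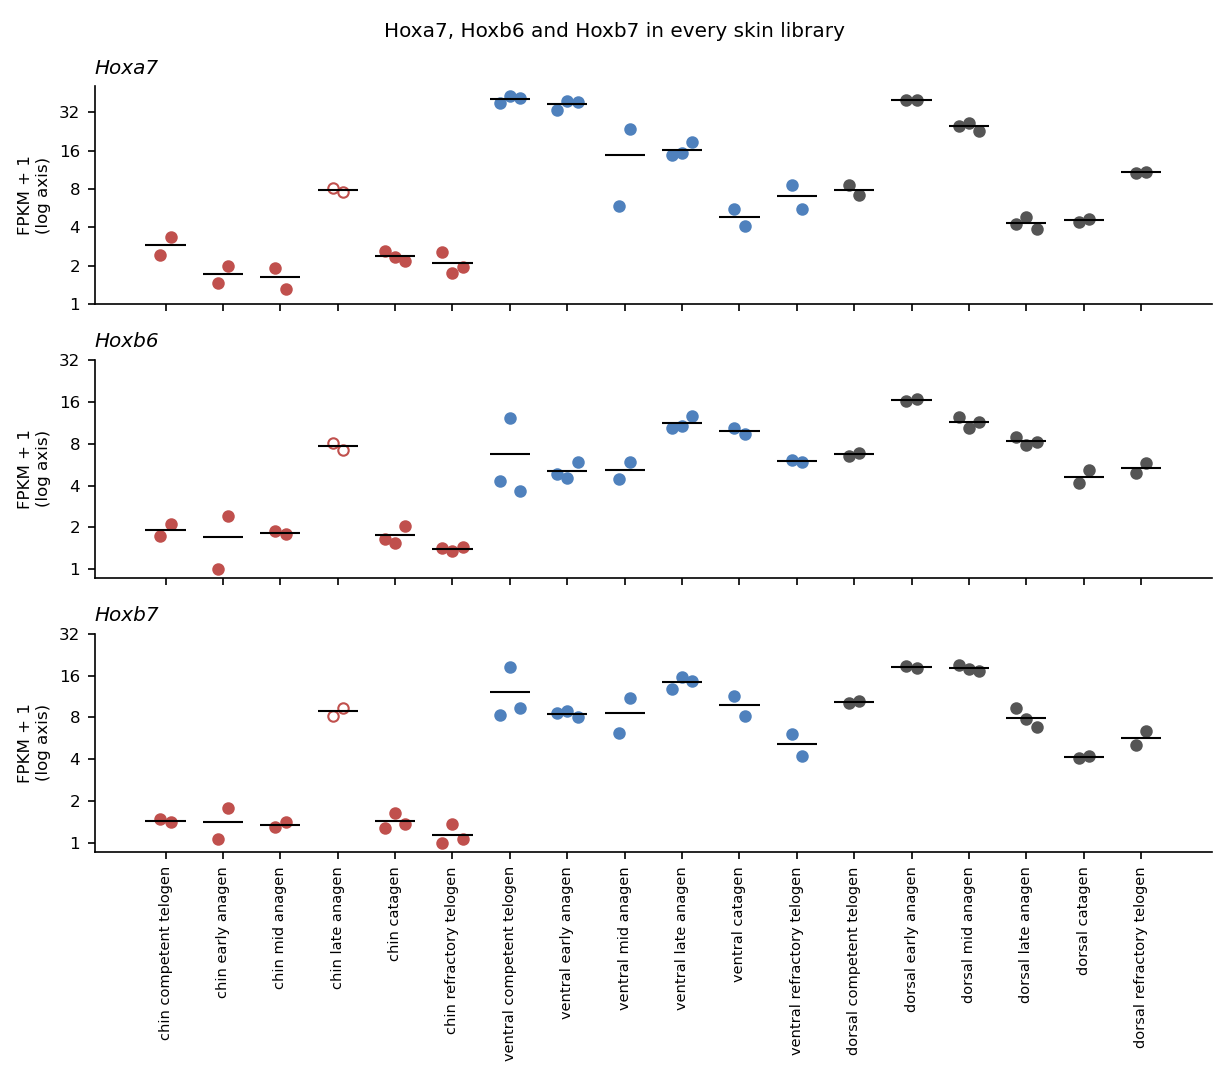
Hoxa7, Hoxb6 and Hoxb7 in each of the 43 skin libraries (points; bars are group means), as FPKM + 1 on a log axis, by domain and stage. The 2 open circles are the libraries labelled chin late anagen, which lie among the trunk libraries, while the other chin libraries stay at or below 2.33 FPKM.

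The promoter of Hoxa7 is shown because this gene separated chin from trunk skin once the chin late anagen libraries were left out. That of Hoxa9 is shown because it had the largest called difference between ventral and dorsal skin with all libraries in the fit. The sequences are from RefSeq on GRCm38.p6 and run from 250 bases before to 50 bases after the annotated start. Hoxa7 is on the minus strand at chr6:52218524-52218823 and Hoxa9 on the minus strand at chr6:52227321-52227620, both inside the span of the gene in the GENCODE annotation. Capitals mark TTTATG, the core of the motif of the CDX factors, which are known regulators of trunk Hox genes.
Hoxa7: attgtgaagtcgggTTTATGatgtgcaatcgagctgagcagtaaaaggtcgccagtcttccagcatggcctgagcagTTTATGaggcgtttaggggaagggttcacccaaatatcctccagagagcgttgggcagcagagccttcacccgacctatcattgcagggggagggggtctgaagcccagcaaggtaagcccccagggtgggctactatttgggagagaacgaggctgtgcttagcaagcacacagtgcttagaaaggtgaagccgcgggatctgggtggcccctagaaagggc
Hoxa9: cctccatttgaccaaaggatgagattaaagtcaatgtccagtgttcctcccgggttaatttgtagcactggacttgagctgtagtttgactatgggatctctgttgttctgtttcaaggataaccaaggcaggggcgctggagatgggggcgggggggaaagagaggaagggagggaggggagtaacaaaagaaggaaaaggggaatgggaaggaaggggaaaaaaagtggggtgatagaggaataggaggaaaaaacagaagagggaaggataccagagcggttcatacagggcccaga
The window of Hoxa7 held 2 matches to TTTATG and that of Hoxa9 held none, searched on both strands. The table had promoters for 22 of the 39 members, and 5 of the 22 held TTTATG (Hoxa7, Hoxb8, Hoxd3, Hoxd4 and Hoxd11), against 11.9% of all 32851 promoters of this length. TATAAA was found in 4 of the 22 members and in 13.6% of all promoters. The median member promoter had 57.7% G or C and 14.5 CpG dinucleotides, against 52.7% and 7 over all promoters.

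In the fit over all 43 libraries, with chin late anagen included as labelled, 21 of the 28 members differed between dorsal and chin skin, where 26.8% of all tested genes did. Of these, 18 were higher in dorsal skin, against 9.52% of genes, and 3 were lower, against 17.3% of genes. The median difference of the 28 members was 0.35 and that of all genes was -0.04. Hoxb7 was higher in dorsal skin by 2.34 ± 0.11 (adjusted p = 4.35e-15), Hoxa7 by 2.07 ± 0.13 (adjusted p = 3.29e-12) and Hoxb6 by 1.88 ± 0.13 (adjusted p = 1.73e-11). Without the chin late anagen libraries, and so over the other 5 stages, these differences were 2.84, 2.66 and 2.23.

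The next members in size were Hoxa9, Hoxb8, Hoxc8, Hoxb9 and Hoxa5. Hoxc8, a gene of the thoracic axis, was at 0.9 to 3.95 FPKM (median 1.74) in chin skin without late anagen and at 2.5 to 7.04 FPKM (median 4.84) in dorsal skin, and the ranges overlapped. It was higher in dorsal skin by 0.81 ± 0.09 (adjusted p = 8.96e-08). Hoxa5, which acts at the neck and upper thorax, was at 0.61 to 3.63 FPKM (median 1.48) in chin and at 2.3 to 8.1 FPKM (median 2.9) in dorsal skin, a difference of 0.74 ± 0.09. Hoxb8, Hoxb9 and Hoxa9 were near 0 in chin skin, with highest values of 0.13, 0.35 and 0.35 FPKM. In dorsal skin they reached 3.94, 4.52 and 11.0 FPKM and were at 0.04, 0.05 and 0 FPKM in their lowest libraries, so that the ranges overlapped. Their fitted differences were 0.83 ± 0.08, 0.75 ± 0.05 and 0.85 ± 0.14.

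Ventral skin differed from chin skin in 20 of the 28 members, where 23.7% of genes did, with 17 higher (9.13% of genes) and 3 lower (14.5% of genes). The median difference was 0.37 for the members and -0.03 for all genes. Hoxa7 was higher in ventral skin by 2.50 ± 0.13 (adjusted p = 1.44e-14), Hoxb7 by 2.31 ± 0.11 (adjusted p = 1.77e-15) and Hoxb6 by 1.66 ± 0.13 (adjusted p = 7.29e-11). Hoxa9 and Hoxa10, which pattern the lower trunk and the limb, followed with 1.60 ± 0.14 and 1.14 ± 0.12. Hoxc8, Hoxc9 and Hoxb9 were higher by 1.06 ± 0.09, 0.86 ± 0.05 and 0.68 ± 0.05. Both trunk comparisons share the chin libraries, so they are not independent of each other.

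The members were also counted by their position in the cluster, to be read against 9.52% of all genes higher and 17.3% lower in dorsal skin, and 9.13% higher and 14.5% lower in ventral skin. Of the 15 tested members of paralog groups 4 to 8, 12 were higher in dorsal skin and 1 was higher in chin skin, and 9 were higher and none lower in ventral than in chin skin. Of the 8 tested members of groups 9 to 13, 6 were higher and 1 lower in dorsal skin, and 7 were higher and none lower in ventral skin. Of the 5 tested members of groups 1 to 3, 1 was lower and none higher in dorsal skin, and 3 were lower and 1 higher in ventral skin. Hoxa2, the gene of the second pharyngeal arch, was the member lower in both, at 0.7 to 3.21 FPKM (median 1.55) in chin without late anagen, 0.13 to 0.92 FPKM (median 0.66) in ventral and 0.33 to 1.71 FPKM (median 0.98) in dorsal skin. It was lower in ventral than in chin skin by -0.58 ± 0.06 (adjusted p = 1.39e-08) and in dorsal skin by -0.31 ± 0.06 (adjusted p = 0.000255). Without the dorsal competent telogen libraries the dorsal difference was -0.09 (adjusted p = 0.31). That setting also drops chin competent telogen from the comparison, so the 2 omissions cannot be told apart. Hoxb2 was higher in ventral than in chin skin by 0.46 (adjusted p = 0.00771).

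**Figure D3:**
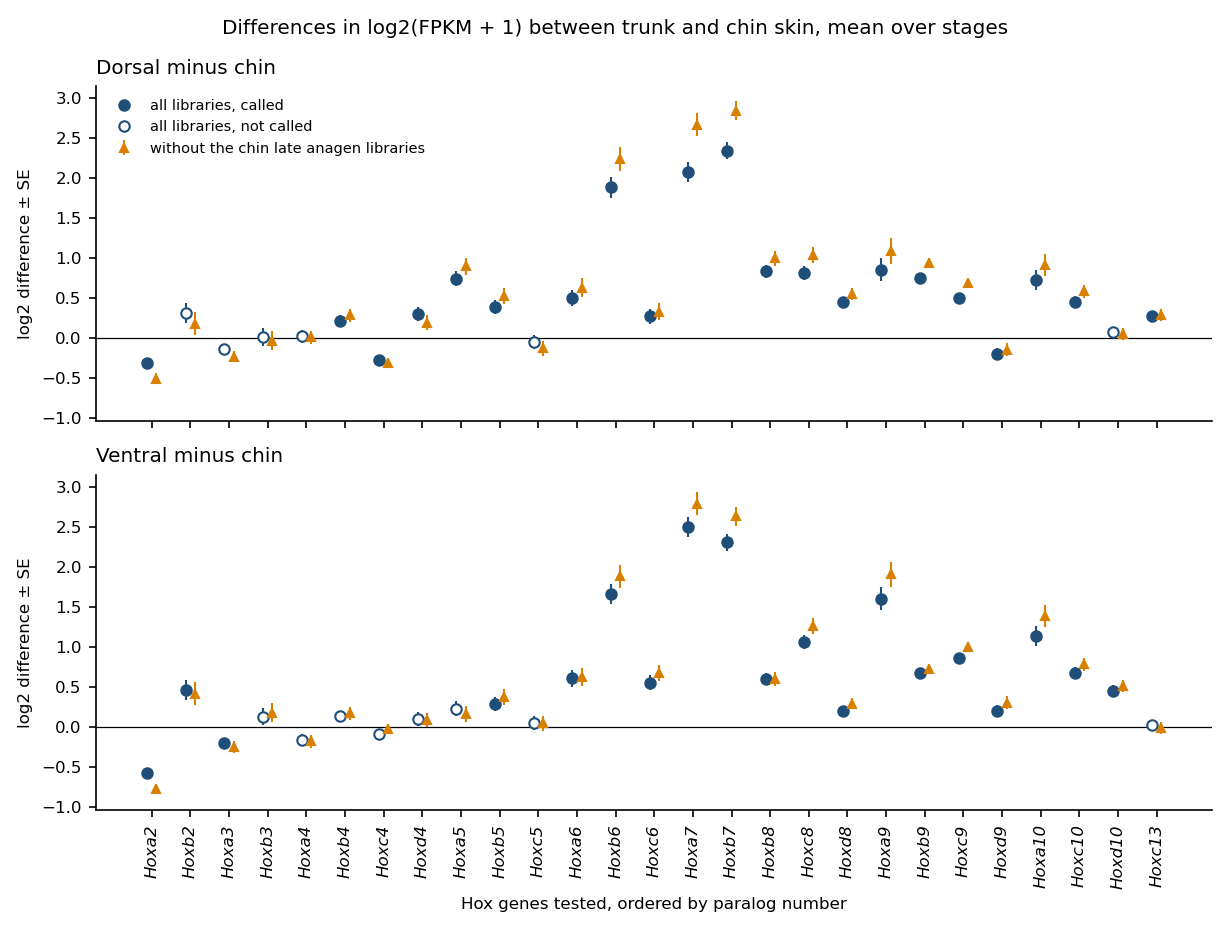
Difference in log2(FPKM + 1) of dorsal minus chin and ventral minus chin skin (vertical axis, ± SE) for tested members, ordered by paralog number. Filled points were called and open points were not, triangles give the difference without chin late anagen, and Hoxa7, Hoxb6 and Hoxb7 lie highest in both panels.

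Ventral and dorsal skin differed in 16 of the 28 members, where 37.5% of genes did, with 6 higher in dorsal skin (17.6% of genes) and 10 higher in ventral skin (19.9% of genes). Without the dorsal competent telogen libraries, and with them the competent telogen stage of this comparison, 12 members differed, with 9 higher in dorsal and 3 higher in ventral skin. The share of all genes was not counted in that setting. Hoxa9 was at 0.06 to 20.8 FPKM (median 0.87) in ventral and at 0 to 11.0 FPKM (median 0.435) in dorsal skin, a difference of -0.75 ± 0.14 for dorsal minus ventral (adjusted p = 8.79e-05). With the libraries labelled dorsal competent telogen and chin late anagen left out, and with them the competent telogen stage of this comparison, it was -0.14 (adjusted p = 0.52). Under the same omission Hoxa7 went from -0.42 ± 0.13 (adjusted p = 0.00937) to -0.03 (adjusted p = 0.9) and Hoxa10 from -0.42 ± 0.12 (adjusted p = 0.00728) to 0.038 (adjusted p = 0.868). The call of these 3 genes was lost in that setting.

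Hoxa5, Hoxd9, Hoxd10 and Hoxc9 were called with and without those libraries. Hoxa5 was higher in dorsal skin by 0.51 ± 0.09 (adjusted p = 4.87e-05). Hoxd9 and Hoxd10, genes of the lower trunk and the limb, were higher in ventral skin, with differences of -0.40 ± 0.07 and -0.38 ± 0.07 for dorsal minus ventral. Hoxd10 was at 0.17 to 3.44 FPKM in ventral and at 0.23 to 1.6 FPKM in dorsal skin, and the ranges overlapped. Hoxc9 was higher in ventral skin by a dorsal minus ventral difference of -0.37 ± 0.05 (adjusted p = 8.66e-07), and of -0.17 (adjusted p = 0.019) with those libraries left out. Hoxc6 had a difference of -0.28 ± 0.09 (adjusted p = 0.0136), and of -0.24 (adjusted p = 0.065) with them left out.

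For most members, as for most genes tested, the change over the hair cycle differed among the domains. A limma test of this difference called 25 of the 28 members, and the 3 others were Hoxa4, Hoxb3 and Hoxc6. It called 73.3% of all genes, so the result is not particular to the Hox genes. The test also used the libraries labelled dorsal competent telogen or chin late anagen, whose labels are in doubt. Hoxa7 in ventral skin was at 37.0, 42.3 and 40.4 FPKM in competent telogen, at 32.7, 38.0 and 37.9 FPKM in early anagen, at 13.8, 14.2 and 17.6 FPKM in late anagen and at 4.58 and 3.1 FPKM in catagen. In dorsal skin it was at 7.61 and 6.17 FPKM in competent telogen, at 38.9 and 39.3 FPKM in early anagen, at 23.8, 25.6 and 22 FPKM in mid anagen and at 3.23, 3.82 and 2.88 FPKM in late anagen. The highest group was thus competent telogen in ventral and early anagen in dorsal skin, with no overlap between that dorsal group and the other dorsal groups. In ventral skin competent telogen and early anagen overlapped, and the 2 mid anagen libraries lay apart at 4.92 and 22.9 FPKM.

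Hoxa9 and Hoxa10 had their highest values in the same groups. Hoxa9 was at 20.8, 12.5 and 20.1 FPKM in ventral competent telogen and at 8.71 and 11.0 FPKM in dorsal early anagen, and in dorsal catagen and late anagen it was at 0 to 0.02 FPKM. Hoxa10 was at 6.13, 7.25 and 10.6 FPKM and at 6.79 and 8.7 FPKM in those groups, and at 0 to 0.07 FPKM in dorsal catagen and late anagen. Hoxd8, a trunk member of the fourth cluster, was at 10.7 and 12.4 FPKM in dorsal early anagen, at 7.8, 5.96 and 8.13 FPKM in ventral competent telogen and at 6.01, 4.49 and 6.41 FPKM in chin refractory telogen, each the highest group of its domain. Chin refractory telogen also held the highest chin values of Hoxd9, at 5.05, 3.15 and 4.95 FPKM.

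The summed FPKM of 6 dermal fibroblast markers (Col1a1, Col1a2, Col3a1, Pdgfra, Dpt and Lum, none at 0 in these groups) went with these values only in part. It was 5278 to 5412 in ventral competent telogen, 4418 to 4492 in dorsal early anagen and 3467 to 3488 in ventral mid anagen, against 573 to 2395 in the other 15 groups, where chin refractory telogen held 1484 to 2395. Ventral early anagen, where Hoxa7 overlapped its highest ventral group, held 1685 to 1747. The ventral mid anagen libraries lay apart in Hoxa7 but close together in this sum. Skeletal muscle markers, 8 in all, summed to 10956 to 16530 FPKM in chin refractory telogen against 205 to 4847 in the other chin groups, and to 6500 to 6671 FPKM in dorsal early anagen, the highest dorsal group. Macrophage markers, 5 in all, summed to 345 to 611 FPKM in chin refractory telogen against 40.3 to 212 in the other chin groups. The part of these markers in the results was not tested. Hoxc13 had another course, with its lowest dorsal group in early anagen, at 37.0 and 38.7 FPKM, and its highest in catagen, at 178 and 208 FPKM. In ventral skin it was lowest in early anagen, at 27.8, 27.8 and 28.6 FPKM, and highest in mid anagen, at 92.0 and 108 FPKM.

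**Figure D4:**
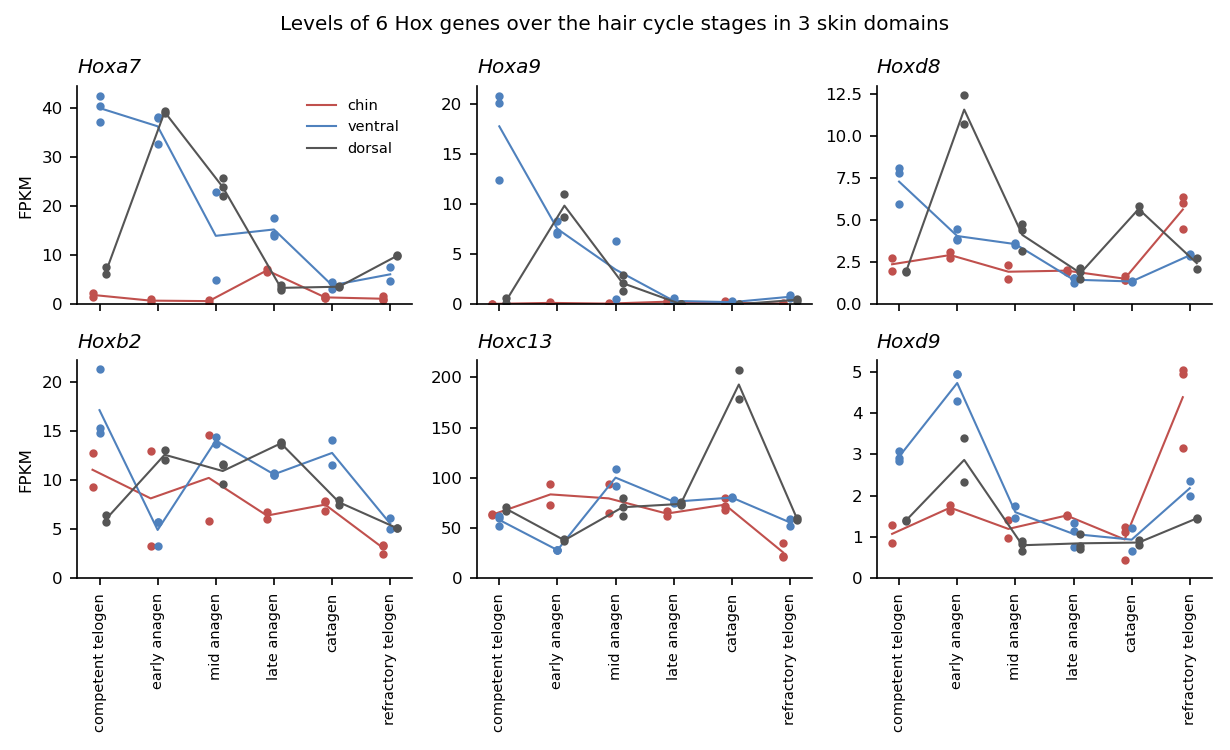
FPKM of Hoxa7, Hoxa9, Hoxd8, Hoxb2, Hoxc13 and Hoxd9 (vertical axes) over the 6 stages (horizontal axis) in chin, ventral and dorsal skin, with points for libraries and lines through group means. Hoxa7, Hoxa9 and Hoxd8 peak in early anagen in dorsal skin, where Hoxc13 is at its lowest dorsal level.

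Growth and rest were compared as the mean of mid and late anagen minus the mean of competent and refractory telogen. Over the 3 domains 14 of the 28 members differed, where 46.3% of genes did, with 7 higher (14.9% of genes) and 7 lower (31.4% of genes) in anagen. Under quantile normalization the split was 9 higher and 4 lower. Without the chin late anagen libraries, so that chin anagen was mid anagen alone, 10 members differed, 5 in each direction. The share of all genes was not counted in that setting. Hoxc13 was higher in anagen by 0.53 ± 0.06 (adjusted p = 4.9e-08) and Hoxb2 by 0.54 ± 0.12 (adjusted p = 0.000661). Hoxb7 and Hoxb6 were higher by 0.86 ± 0.11 (adjusted p = 9.14e-08) and 0.75 ± 0.13 (adjusted p = 1.78e-05), and without chin late anagen by 0.41 (adjusted p = 0.00507) and 0.41 (adjusted p = 0.0214). In the mean over the domains all 4 tested Hoxd members were lower, with Hoxd9 at -0.51 ± 0.07 (adjusted p = 9.59e-07), Hoxd8 at -0.39, Hoxd4 at -0.30 and Hoxd10 at -0.26, and under quantile normalization Hoxd4 and Hoxd10 were no longer called (adjusted p = 0.153 and 0.0992). All 4 were also lower within chin and within ventral skin. Within dorsal skin Hoxd9 was lower, at -0.42 (adjusted p = 0.00934), Hoxd4 was higher, at 0.52 (adjusted p = 0.0051), and Hoxd8 and Hoxd10 were not called, at 0.26 (adjusted p = 0.0624) and -0.05 (adjusted p = 0.796).

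Within chin skin 16 members differed between anagen and telogen, where 42.6% of genes did and the median of all genes was -0.17, with 7 higher (8.55% of genes) and 9 lower (34.1% of genes). Without the chin late anagen libraries the contrast was mid anagen minus telogen, and 7 members differed, 2 higher and 5 lower. The share of all genes was not counted there either. Hoxb7 went from 1.43 to 0.08 (adjusted p = 0.856) and Hoxb6 from 1.19 to 0.16 (adjusted p = 0.73). Hoxc13 and Hoxa2 were called either way, at 0.81 and -1.10 with these libraries and at 0.95 and -0.85 without them. Within ventral skin 13 members differed, where 31.8% of genes did, with 3 higher (8.82% of genes) and 10 lower (22.9% of genes), among them Hoxa9 at -1.42 ± 0.24 (adjusted p = 2.79e-05). Within dorsal skin 13 differed, where 31.4% of genes did, with 9 higher (21% of genes) and 4 lower (10.4% of genes).

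The domains were also compared at each stage alone, with a test for any difference among chin, ventral and dorsal skin. It called 23 of the 28 members at competent telogen, where 54% of genes were called, 23 at early anagen (51.6% of genes), 18 at mid anagen (38.1% of genes) and 10 at late anagen (20.8% of genes). It called 15 at catagen (42.9% of genes) and 16 at refractory telogen (42.2% of genes). At late anagen, leaving out the libraries labelled chin late anagen and dorsal competent telogen left 6 members.

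Ear skin was compared with dorsal competent telogen, the group of the same table that lay close to the libraries labelled chin late anagen. Against this group it had higher levels of Hoxa2 and Hoxd members and lower levels of Hoxb and Hoxc members. Of the 21 members among the 19299 genes tested, 20 differed, where 59.3% of genes did. In ear skin 6 were higher (44.7% of genes) and 14 lower (14.6% of genes). The filter limits the reading of the lower members, since 30 members stayed under 0.5 FPKM in every ear skin library. A member that passed the filter only through the dorsal libraries could come out lower in ear skin but hardly higher. The count of lower members thus depends in part on the filter. The median difference was -0.89 for the members, while that of all genes was 0.33, so that a difference of 0.33 equals the typical gene. The higher members included Hoxa2 and all 4 tested Hoxd genes, and the lower ones included 6 of 7 tested Hoxb and all 6 tested Hoxc genes. With dorsal refractory telogen in place of competent telogen, 20 of 22 tested members differed, 4 higher and 16 lower. The share of all genes was not counted in that setting, and the limit of the filter holds there too.

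Hoxa2, which is required to form the external ear from the second pharyngeal arch, was at 3.58 and 3.39 FPKM in ear skin and at 0.53 and 0.41 FPKM in dorsal skin. It was higher in ear skin by 1.61 ± 0.13 (adjusted p = 0.000137). Its values did not overlap between the tissues, with 2 libraries on each side. The share of all genes without overlap was not counted for the ear. Hoxd8 was at 3.7 and 3.75 FPKM against 1.89 and 1.98 FPKM, a difference of 0.69, which was 0.33 when libraries were scaled by the median of ratios (adjusted p = 0.0188). Hoxd9 and Hoxd4 had differences of 0.67 (adjusted p = 0.045) and 0.59 (adjusted p = 0.0326) and were not called under that scaling (adjusted p = 0.26 and 0.118). Over all stages dorsal skin held 1.5 to 12.4 FPKM of Hoxd8, 0.67 to 3.39 FPKM of Hoxd9 and 0.29 to 5.62 FPKM of Hoxd4. These ranges include the ear skin values of these genes.

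The promoters of Hoxa2 and Hoxd8 are shown because these members were high in the ear. Hoxa2 is on the minus strand at chr6:52164782-52165081 and Hoxd8 on the plus strand at chr2:74704365-74704664, and both windows span the start of the gene in GENCODE. Capitals mark TGATNNAT, read on either strand, a composite motif of PBX and HOX proteins.
Hoxa2: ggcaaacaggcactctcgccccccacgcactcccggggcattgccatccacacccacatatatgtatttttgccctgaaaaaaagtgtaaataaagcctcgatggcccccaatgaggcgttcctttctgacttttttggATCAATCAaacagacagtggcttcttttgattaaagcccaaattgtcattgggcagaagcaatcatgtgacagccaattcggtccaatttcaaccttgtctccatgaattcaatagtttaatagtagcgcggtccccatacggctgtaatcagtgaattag
Hoxd8: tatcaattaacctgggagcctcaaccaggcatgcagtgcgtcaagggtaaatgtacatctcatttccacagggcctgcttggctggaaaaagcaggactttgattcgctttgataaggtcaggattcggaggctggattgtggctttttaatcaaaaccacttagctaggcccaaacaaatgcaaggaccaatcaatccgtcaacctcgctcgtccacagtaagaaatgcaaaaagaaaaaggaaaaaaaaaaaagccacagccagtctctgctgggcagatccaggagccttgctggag
The window of Hoxa2 held 1 match and that of Hoxd8 none. The motif was in 4 of the 22 member promoters (Hoxa2, Hoxb1, Hoxb8 and Hoxd11) and in 8.85% of all promoters.

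The trunk genes were near 0 in the ear. Hoxb6 was listed at 0 in all 5 ear libraries and at 5.57 and 5.85 FPKM in dorsal skin. Hoxb7 was at 0.09 and 0.22 FPKM in ear skin against 9.09 and 9.41 FPKM in dorsal skin, and Hoxa7 was at 0.08 and 0 FPKM against 7.61 and 6.17 FPKM. Hoxc8 was listed at 0 in both ear skin libraries against 4.98 and 5.32 FPKM. The fitted differences of ear skin minus dorsal skin were -3.15 ± 0.10 for Hoxb7 (adjusted p = 2.97e-06), -2.92 ± 0.12 for Hoxa7 (adjusted p = 9.04e-06), -2.75 ± 0.09 for Hoxb6 (adjusted p = 3.49e-06) and -2.62 ± 0.10 for Hoxc8 (adjusted p = 6.9e-06). None of these 4 genes overlapped between ear and dorsal skin, again with 2 libraries on each side and no share of all genes counted.

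Hoxc13 had the largest of all member differences in this comparison. It was at 3.24 and 3.93 FPKM in ear skin and at 67.1 and 71.1 FPKM in dorsal skin, a difference of -3.94 ± 0.10 (adjusted p = 1.1e-06). The summed FPKM of the 7 hair shaft keratins moved with it, at 33.2 to 37.9 in ear skin against 8098 to 8195 in these dorsal libraries. Its part in the result was not tested. The 6 fibroblast markers summed to 8900 to 9191 FPKM in ear skin and to 1061 to 1064 FPKM in these dorsal libraries, where Hoxa2 was lower, and their part was not tested either.

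The cartilage/muscle complex carried the markers of its label, with 14660 to 17189 FPKM summed over 8 skeletal muscle markers and 1437 to 1819 FPKM over the 8 cartilage markers found of 9 listed. Its 7 hair shaft keratins were all listed at 0. Of the 21 members, 8 differed between it and ear skin, where 66.5% of genes did and the median of all genes was -0.11, with 2 higher (28% of genes) and 6 lower (38.5% of genes) in cartilage/muscle. Hoxa2 was at 6.25, 7.29 and 5.53 FPKM in cartilage/muscle against 3.58 and 3.39 FPKM in ear skin, without overlap, and was higher by 0.71 ± 0.12 (adjusted p = 0.00239). Hoxa7 was the other higher member, at 0.36, 0.4 and 0.42 FPKM against 0.08 and 0 FPKM (adjusted p = 0.0147).

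The lower members were led by Hoxc13, listed at 0 in all 3 cartilage/muscle libraries, with a fitted difference of -2.19 ± 0.09 (adjusted p = 3.72e-06). Hoxb2 was at 0.11, 0 and 0.07 FPKM against 3.54 and 2.19 FPKM in ear skin (-1.85 ± 0.16, adjusted p = 0.000115). Hoxd10 and Hoxd4 were lower by differences of -1.02 ± 0.14 and -0.93 ± 0.17, while Hoxd9 was at 3.82, 2.47 and 4.7 FPKM in cartilage/muscle and at 2.57 and 3.11 FPKM in ear skin, which overlap. Between cartilage/muscle and dorsal skin 17 members differed, where 71.1% of genes did and the median of all genes was 0.24, with 3 higher (42.8% of genes) and 14 lower (28.3% of genes). The limit that the filter sets on lower members holds here too, with 34 members under 0.5 FPKM in all 3 cartilage/muscle libraries.

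**Figure D5:**
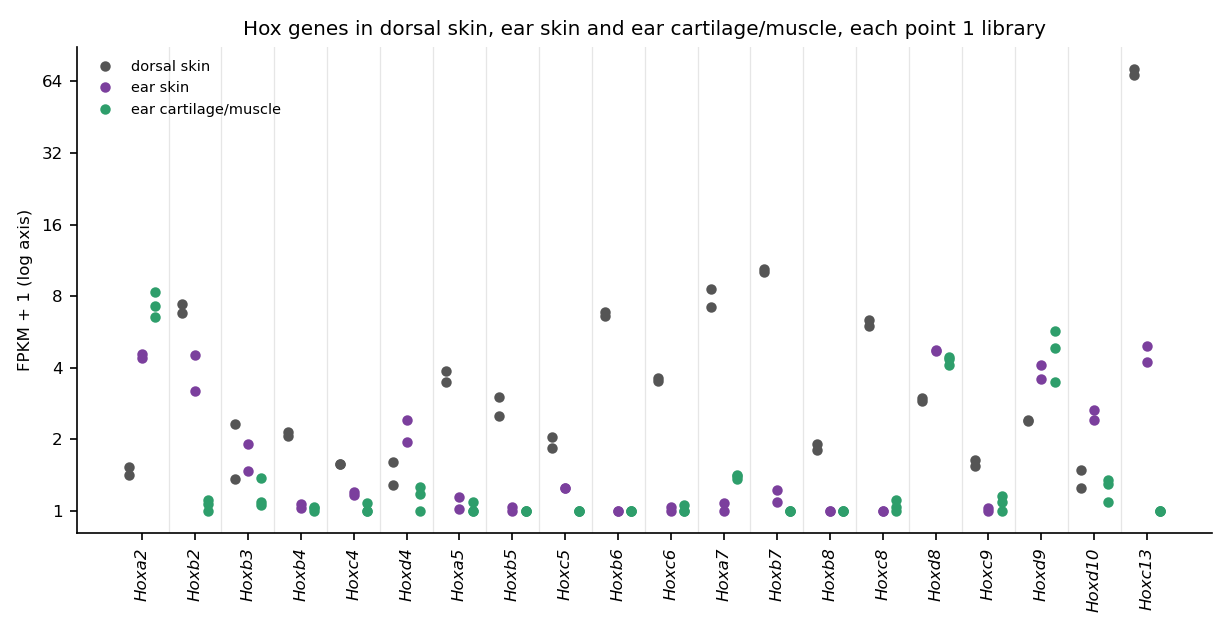
Level of tested members in each library of dorsal competent telogen skin, ear skin and ear cartilage/muscle, each point a library. Hoxa2 is highest in cartilage/muscle and lowest in dorsal skin, and Hoxc13, Hoxb6, Hoxb7 and Hoxa7 are higher in dorsal skin than in both ear tissues.

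Paralog groups 1 to 3 made up 44.8% to 49.3% of the summed Hox FPKM without Hoxc13 in ear skin and 41.8% to 54.5% in cartilage/muscle. Their share was 21.4% to 47.5% in chin skin without late anagen and 15.7% to 18.2% in the libraries labelled chin late anagen. In ventral skin it was 6.4% to 30.1% and in dorsal skin 9.5% to 34.1%. Chin refractory telogen held the lowest of the chin shares without late anagen, at 21.4% to 27.3%, and the other chin libraries held 34.4% to 47.5%. The chin range as a whole thus overlapped with the ear, ventral and dorsal ranges. The sums themselves were lower in the ear, at 19.5 to 20.4 FPKM in ear skin and 14.9 to 16.1 FPKM in cartilage/muscle.

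Genes that work with or upstream of the Hox genes were counted in the same fit, in which 26.8% of all genes differed between dorsal and chin skin. Of the 9 tested TALE cofactors, the PBX, MEIS and PKNOX proteins that bind DNA together with HOX proteins, 1 differed between dorsal and chin skin. This was Pbx4, with a dorsal minus chin difference of -0.52 ± 0.12 (adjusted p = 0.00217). It was at 1.08 to 4.95 FPKM in chin and at 0.51 to 3.85 FPKM in dorsal skin, and the ranges overlapped. Of 13 tested upstream regulators, 2 were higher and 4 lower. Rarg, a retinoic acid receptor, was at 32.2 to 58.3 FPKM (median 41.1) in chin and at 3.29 to 52.0 FPKM (median 41.4) in dorsal skin, and its difference of -0.53 ± 0.07 (adjusted p = 1.26e-06) rested on the 2 dorsal catagen libraries, at 3.29 and 4.24 FPKM. Without them, a choice made after seeing the data, it was -0.03 ± 0.07 (adjusted p = 0.848), and that of Pbx4 was -0.49 ± 0.14 (adjusted p = 0.0107). Of 6 tested noncoding RNAs of the clusters, 1 was higher. This was Hoxb5os, named after its values were seen, with a difference of 1.57 ± 0.14 (adjusted p = 3.37e-09). It lies antisense to Hoxb5 and Hoxb6, and the libraries do not mark strand, so reads of the 2 strands cannot be told apart there. The same limit holds for 14 members that overlap a gene on the other strand, and 15 overlap a gene on their own strand, where the reads had to be divided between the genes.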

How the data were processed

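Total RNA of skin and ear tissue was reverse transcribed and amplified by the SMART-seq2 protocol and made into unstranded libraries. The authors mapped the reads to mm10 with GENCODE annotation, estimated transcript abundance with RSEM 1.2.25 (submitters' processing notes) and deposited FPKM per gene, with a correction of batch effects mentioned without a method. Counts were not used here and depth is an estimate, so that no counting interval is given.

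Values were analysed as log2(FPKM + 1), with a pseudocount of 1, after a filter of 0.5 FPKM in at least 2 libraries. limma 3.58.1 in R 4.3.3 was fitted over all genes, with a variance trend, separately for the 43 skin libraries (21257 genes, a term for each of 18 groups) and the 7 libraries of the ear table (19299 genes), and p-values were adjusted over all genes by Benjamini-Hochberg. Domain contrasts average the 6 stages with equal weight. Fold changes on this scale understate those of low genes. Figures and tables were made with Python 3.11.15. Named were the called members with the largest absolute difference (8 per domain contrast, 5 for anagen and for each ear contrast), Hoxc13, the 3 highest members per domain or tissue, members under 0.5 FPKM in every library, and the 2 called cofactor or regulator genes with the largest dorsal minus chin difference. The values of 1 member are not reported here, and it stays in the counts. Other genes given with values illustrate a comparison and were picked after their values were seen. The members and lists were chosen with earlier results of these data known.

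The fit was first tested on simulated data. The replicate numbers did not pair the libraries and were not used in the fit. The ear skin columns could be matched to their group only. Alternatives were the pseudocount, the filter, the scaling (TPM, median of ratios, quantile), the variance model, a replicate block, each library left out, ventral catagen replicate 1 left out, the libraries labelled chin late anagen, dorsal competent telogen or both left out, dorsal catagen left out for Rarg and Pbx4, and, for the ear, dorsal refractory telogen in place of competent telogen. Coordinates are from GENCODE on GRCm38, and sequences from RefSeq on GRCm38.p6.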

Additional observations from a re-analysis of the deposited data

Results flagged for a closer look

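For 25 of the 28 tested members the change over the 6 stages differed among chin, ventral and dorsal skin by a limma test of the domain by stage interaction, where 73.3% of all genes were called as well. Among them, the adjusted p was 2.4e-12 for Hoxd8, 1.661e-11 for Hoxb9, 8.302e-11 for Hoxc9, 1.034e-10 for Hoxa7 and 1.543e-10 for Hoxc13. It was 1.468e-09 for Hoxc10, 3.734e-09 for Hoxa9, 6.39e-09 for Hoxb7, 7.823e-09 for Hoxd4, 1.057e-08 for Hoxa2 and 1.747e-08 for Hoxa10. It was 1.382e-07 for Hoxb8, 2.227e-07 for Hoxa5, 3.013e-06 for Hoxd9, 4.482e-06 for Hoxd10 and 7.971e-06 for Hoxb6. It was 1.042e-05 for Hoxc8, 5.999e-05 for Hoxa3, 0.0002175 for Hoxb4 and 0.0002942 for Hoxc4. It was 0.0005229 for Hoxa6, 0.0005425 for Hoxb5, 0.0007713 for Hoxb2 and 0.02707 for Hoxc5. The test included the libraries labelled chin late anagen and dorsal competent telogen, and it called 24 to 26 members when any library was left out. Leaving out a single library keeps the other library of these groups, so this range does not bear on their labels.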

How the results depend on the processing

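Of the counts of called members, 822 of their values under the alternatives stayed within 1.5 times the count reported and 13 did not. In chin skin the anagen minus telogen count was 7 in place of 16 without the chin late anagen libraries, with or without dorsal competent telogen. Chin anagen was then mid anagen alone. In dorsal skin the anagen minus telogen count was 8 in place of 13 at a pseudocount of 0.1. At late anagen the count was 6 in place of 10 without both groups of libraries. Only ventral and dorsal skin were then left at that stage, so the 2 counts are of unlike tests. For settings that leave out libraries, the share of all genes called was not counted. The list of cofactors, regulators and cluster RNAs gave 13 in place of 8 called genes for dorsal minus chin and 17 in place of 11 for dorsal minus ventral without dorsal competent telogen, with or without chin late anagen. The difference of Hoxa10 between dorsal and ventral skin reversed to 0.038 without dorsal competent telogen (adjusted p = 0.866) and without both groups (adjusted p = 0.868). Leaving out dorsal competent telogen also took the competent telogen stage out of the contrasts of dorsal skin with chin and ventral skin. Of the differences of single members, 7602 values kept their direction and call, or changed direction with no call in either fit. Another 79 gained a call, 167 lost it, and 2 reversed direction with a call in at least 1 of the fits compared.

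With each library left out in turn, dorsal minus chin called 19 to 21 members, ventral minus chin 17 to 21 and dorsal minus ventral 15 to 18. Ear skin minus dorsal skin called 6 to 20, and the lowest values, 6 and 7, came without either dorsal library, when 8 and 9 members passed the filter. Cartilage/muscle minus ear skin called 5 to 10, and cartilage/muscle minus dorsal skin 5 to 18. Anagen minus telogen called 12 to 16 over the domains, 14 to 17 in chin, 11 to 14 in ventral and 10 to 14 in dorsal skin, and the stage tests called 21 to 23, 22 to 24, 13 to 20, 7 to 11, 11 to 16 and 14 to 18 members from competent to refractory telogen in the order of the cycle.

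Scaling by the median of ratios changed the split of higher and lower members for anagen minus telogen in chin skin from 7 and 9 to 10 and 6, and quantile normalization changed it to 11 and 4. Quantile normalization gave 4 and 8 in ventral skin in place of 3 and 10, and rescaling to TPM gave 12 and 3 in dorsal skin in place of 9 and 4. With a replicate block, dorsal minus chin called 20 members, ventral minus chin 20 and dorsal minus ventral 16. The replicate numbers did not pair the libraries: the mean correlation of deviations was 0.00263 for the same number and -0.00158 for other numbers, 9 of 327 pairs were over 0.1, and 16 of 43 libraries matched best with their own number. Groups of 2 or 3 libraries and the absence of counts limit the precision of low members.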

Other observations

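The TALE cofactors, partners of HOX proteins on DNA, were also counted in the ear. In ear skin 6 of the 9 tested were higher and none lower than in dorsal skin, and in cartilage/muscle 7 were higher and none lower, where 44.7% and 42.8% of all genes were higher. Meis1, which encodes a homeobox protein that binds DNA with HOX and PBX proteins and was named after its values were seen, was at 27.1 to 31.7 FPKM in cartilage/muscle, at 10.2 to 10.9 FPKM in ear skin and at 3.43 to 4.11 FPKM in dorsal competent telogen, without overlap. Its difference between ear skin and dorsal skin was 1.28 on the log2(FPKM + 1) scale. Meis2 was at 10.3 to 12.4 FPKM, 4.5 to 4.7 FPKM and 0.63 to 0.67 FPKM in the same order, with a difference of 1.76 between ear skin and dorsal skin. Of the upstream regulators, 5 of 13 were higher and none lower in ear skin, against 44.7% of all genes higher and 14.6% lower.

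Hoxb5os, the RNA antisense to Hoxb5 and Hoxb6, was listed at 0 in all 5 ear libraries and was at 3.94 to 4.44 FPKM in dorsal competent telogen.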
